A study of Mus musculus with 6 samples.

Results

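Gata2, Runx1, Tal1, Lyl1, Lmo2, Fli1, Erg, Meis1, Mecom and Hlf encode transcription factors that hematopoietic stem cells (HSC) need to form or to maintain themselves. The genes were chosen with earlier results of these data known. Their probes were then taken by the gene name printed in the array files, without use of any signal. This gave 13 probes for all 10 genes, out of 39429 probes and 31870 gene names on the array. The arrays compared LSK-SLAM cells, a marrow fraction enriched for HSC, after serial transplantation of wild-type (WT) cells or of cells that lack p190-B, a GTPase-activating protein encoded by Arhgap5. Fetal liver cells of p190-B-/- embryos or of WT littermates, of the CD45.2+ allotype and backcrossed to C57BL/6J, were transplanted with CD45.1+ competitor marrow into lethally irradiated congenic mice, and marrow of these primary recipients was then given to lethally irradiated secondary (2T) recipients. Sorted LSK CD150+ CD48- cells of secondary recipients gave 3 2T-WT and 3 2T-p190-B-/- arrays, each array holding 1 sample labelled in a single colour. The knockout is constitutive, so that p190-B was also absent from the donor cells before transplantation, and both groups carry the effects of irradiated hosts and of competitor marrow. Host age, and whether competitor cells were removed in the sort, are not given in the sources used here.

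Tal1 or Lyl1, which are basic helix-loop-helix proteins, bind DNA with an E protein at E-boxes and join Lmo2, Ldb1 and a GATA factor in 1 complex. Runx1 with Cbfb, and the ETS factors Fli1 and Erg, occupy many of the same enhancers. Meis1 binds with Pbx and Hox proteins, Mecom is a zinc-finger protein needed for long-term HSC, and Hlf is a PAR bZIP factor that marks HSC with long-term activity. Together they are known for holding the stem cell programme against differentiation.

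The array reads each gene at 1 or 2 stretches of 60 bases, and the probes of Mecom and Runx1 target different transcript variants. The last 30 bases of 6 probes are shown because the detection of their genes turned on which probe was read, or because the probe ends in a run of A. Capitals mark runs of 4 or more of the same base.
Mecom A_55_P2111172, transcript variant 2: ctgtggcttagtAAAAtgacTTTTagacac
Mecom A_51_P482148, transcript variant 1: gagaccttctccaggattcttgtttcaccc
Runx1 A_55_P2183438, transcript variant 2: atcccggagggaaactgtgaatgcttctga
Runx1 A_51_P206585, transcript variant 4: actgttgttacagtggaggacttggtcaaa
Tal1 A_55_P2106690: gactctttattgAAAAAcAAAAAcAAAAAA
Lmo2 A_55_P2083988: tgtttctatacaaatgtaaatcttAAAAAA
On mm9, the build of the probe annotation, the first Mecom probe lies at chr3:30135491-30135550 and the second at chr3:29876185-29876244, both on the minus strand, with 259306 bases between their starts. The Runx1 probes lie at chr16:92605785-92605844 and chr16:92604413-92604472, 1372 bases apart. The probe of Tal1 lies at chr4:114744219-114744278 and that of Lmo2 at chr2:103821857-103821916, both on the plus strand. Of the last 30 bases, 18 were A in the Tal1 probe and 14 in the Lmo2 probe, against 4 to 12 in the other 11 probes. Whether these probes lie in an untranslated region was not looked up, as no annotation of mm9 was used here.

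Mecom has 2 windows in the RefSeq promoter table (GRCm38.p6, 250 bases before to 50 after a start). Both are shown because the Mecom probes gave different signals and the gene has 2 starts. Capitals mark matches, on either strand, to GATAA (GATA factors), TGTGGT (RUNX), GGAAGT (ETS), CAGATG and CAGCTG (E-boxes), TGACAG (MEIS) and TTACGTAA (PAR bZIP factors). They are the motifs of the 10 factors other than Mecom and Lmo2. These motifs do not overlap one another in the windows below.
Mecom upstream start, chr3:30509710-30510009, minus strand: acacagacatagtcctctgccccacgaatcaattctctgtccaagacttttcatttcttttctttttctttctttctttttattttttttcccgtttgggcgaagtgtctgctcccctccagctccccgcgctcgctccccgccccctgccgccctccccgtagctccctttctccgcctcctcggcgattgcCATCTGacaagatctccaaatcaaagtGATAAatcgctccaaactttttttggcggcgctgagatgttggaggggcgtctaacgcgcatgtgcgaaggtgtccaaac
Mecom downstream start, chr3:30013155-30013454, minus strand: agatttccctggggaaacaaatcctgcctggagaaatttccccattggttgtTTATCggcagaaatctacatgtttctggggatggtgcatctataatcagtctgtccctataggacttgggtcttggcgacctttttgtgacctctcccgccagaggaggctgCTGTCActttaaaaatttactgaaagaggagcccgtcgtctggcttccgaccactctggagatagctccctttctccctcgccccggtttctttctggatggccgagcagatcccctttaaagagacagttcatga
The upstream window held 1 GATAA and 1 CAGATG, and the downstream window held 1 GATAA and 1 TGACAG. Among all 32851 windows of the table, 25.4% held GATAA, 17.2% CAGATG and 19.2% TGACAG, so that each match is a common one. Of the 10 genes, 8 had windows, 14 in all. GATAA was in 4 of the 14, TGTGGT in 2 (against 16.8% of all windows), CAGATG and TGACAG in 2 each, GGAAGT in 1 (against 23.8%), CAGCTG in 1 (against 16.3%) and TTACGTAA in 0 (against 0.119%). Gata2 and Runx1 have 2 windows each, Tal1 2 and Erg 3. Lmo2 and Fli1 have none in this table. Which start gives which probed variant was not established, and the probe positions above are on another build.

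Detection was uneven among the 10 genes. A probe was called well above background by the scanner software on all 6 arrays for 5 of them, Tal1, Lyl1, Meis1, Hlf and Mecom, against 35.5% of all probes on the array, with flagged spots counted in both. At its best probe, Runx1 was above background on 3 arrays, Gata2 and Lmo2 on 2 each, and Fli1 and Erg on none. Of the 13 probes, 3 were above background on no array, against 16.7% of all probes, so that both counts lie near the shares over all probes. By array, the genes above background numbered 5, 7 and 5 in the 2T-WT replicates, in their order, and 7, 6 and 7 in those of 2T-p190-B-/-. A probe that is not above background gives only an upper limit, so that these counts do not show that a gene was silent. The share of all probes above background differed between arrays, from 48.4% to 66.5% in 2T-WT and from 53.0% to 73.1% in 2T-p190-B-/-.

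**Figure D1:**
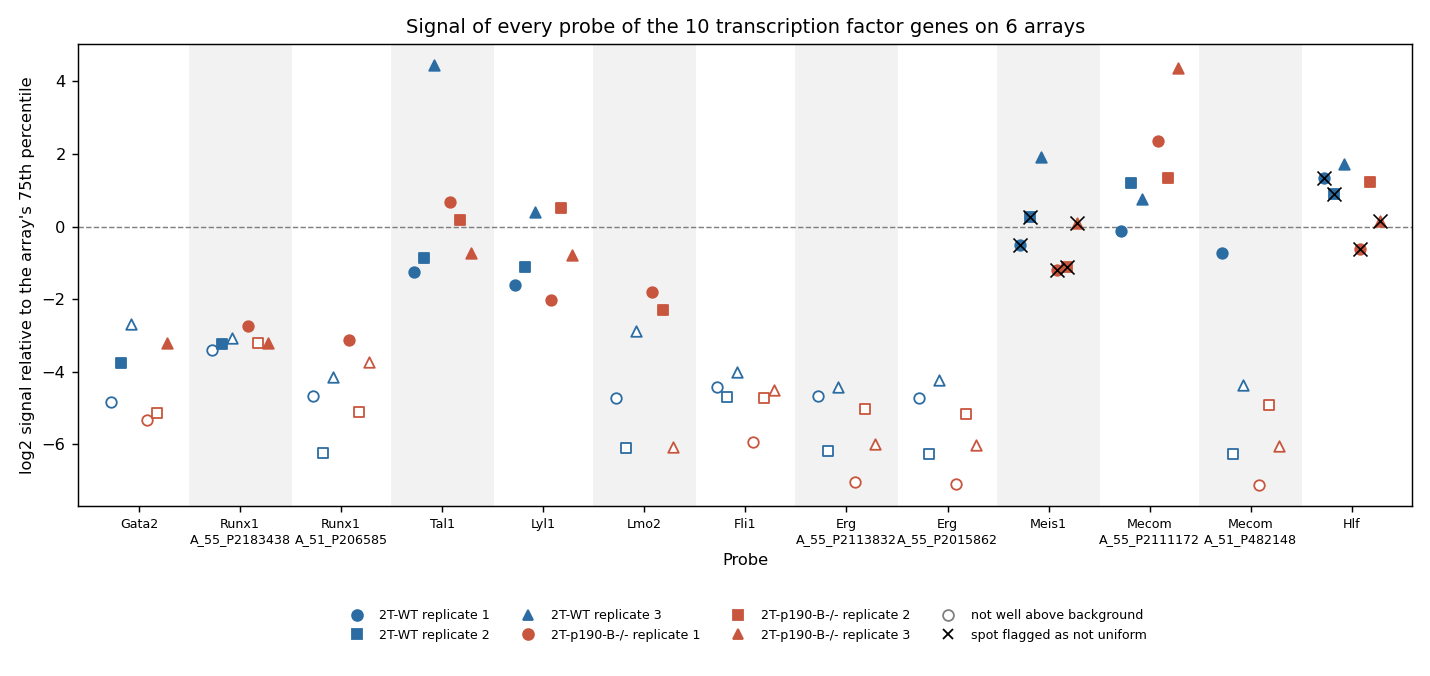
Signal of each of the 13 probes on each array, as log2 relative to the array's 75th percentile (dashed line). Filled symbols are well above background, open symbols are not, and crosses mark spots that the scanner software flagged as not uniform. The Mecom probe A_55_P2111172 is the probe whose 3 2T-p190-B-/- values, 1.34 to 4.36, all lie above its 3 2T-WT values, -0.13 to 1.20.

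Each signal below is the log2 of the processed signal relative to the 75th percentile of its array, so that 0 means as bright as that percentile. These values set 1 probe against itself on other arrays and do not rank genes by expression. Only probes above background on at least 3 arrays (63.8% of the array) were tested, 25160 in all, of which 4 belong to the 10 genes (1 each of Runx1, Tal1, Lyl1 and Mecom). By limma, adjusted by Benjamini-Hochberg over every probe tested, 0 of the 4 had an adjusted p under 0.05, against 0 of 25160 (0%). At an unadjusted p under 0.05 the count was also 0 of 4, against 6.57% of all probes tested, and the methods' t-test took 0 of 4 at p of 0.05 or less, against 7.1% of all probes, and 0 probes after adjustment. The difference was above 0 for 3 of the 4, against 39.2% of all probes tested. The median difference, 2T-p190-B-/- minus 2T-WT, was 0.10 over the 4 genes and -0.33 over all probes tested. The study took the cells of each group from separate 2T mice, in repeated isolations, but which mouse or mice gave each array is not stated, and the p-values measure the spread between these samples. With 3 arrays a group, the smallest two-sided p of an exact permutation is 0.1. In sorted bulk cells, fewer cells of a type and less RNA per cell cannot be told apart.

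Mecom had the largest difference of the 4. At probe A_55_P2111172 its log2 signal was -0.13, 1.20 and 0.77 in the 2T-WT replicates 1 to 3, and those of 2T-p190-B-/- gave 2.37, 1.34 and 4.36 in the same order. The groups did not overlap, although 2T-p190-B-/- replicate 2 and 2T-WT replicate 2 lay next to each other and 2T-p190-B-/- replicate 3 stood well above the rest. The means were 0.62 ± 0.68 (SD, n = 3) and 2.69 ± 1.54 (SD, n = 3), a difference of 2.07 (SE 0.93, 95% interval -0.06 to 4.204), or 4.203-fold on the linear scale. Limma gave p = 0.0554 and an adjusted p of 0.637, and the exact two-sided permutation test gave p = 0.1, the smallest it allows. Of all probes tested, 94.7% had a lower difference. Mecom was 1 of 4 genes whose groups did not overlap, against 16.1% of all probes tested in either direction and 4.52% with 2T-p190-B-/- higher. Without 2T-p190-B-/- replicate 3 the difference was 1.24, and on the 4 arrays of the only slide that held both groups it was 0.86. Slide as a block gives that same value by construction, since each other slide held 1 array. By limma, the adjusted p was between 0.343 and 0.856 under every alternative processing that was run with adjustment. Other genes stood apart on that array too. The summed signal of 6 endothelial marker genes, each relative to the array's 75th percentile, was 77.5 on 2T-p190-B-/- replicate 3 and between 11.5 and 16.9 on the other 5 arrays. There, Tie1, an endothelial receptor, stood at 4.999 and was above background on that array alone, and Sox18, an endothelial transcription factor, stood at 3.93. Of the 6 genes, 5 were above background on that array, and between 3 and 5 on the others, while Cdh5, the endothelial cadherin, was not above background there, at -5.40. Their part in the Mecom difference was not tested.

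The other Mecom probe, A_51_P482148 for transcript variant 1, gave another picture. Its log2 signal was -0.74, -6.27 and -4.37 in 2T-WT and -7.11, -4.92 and -6.05 in 2T-p190-B-/-. It was above background on 2T-WT replicate 1 alone. The other 5 values are upper limits, 2 of them in 2T-WT, so that no fold is given. The groups overlapped, so that the probes of Mecom do not share a direction and the difference above belongs to 1 of the 2 probes.

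Meis1, a homeodomain protein that limits oxidative stress in HSC, and Hlf were above background on every array, but the scanner software flagged their spots as not uniform on 5 and on 4 of the 6 arrays. Spots flagged on at least 4 arrays were rare, 88 of 43020 (0.205%). Flagged spots were left out, so that neither gene could be tested as planned. With the flagged spots kept, a choice made after seeing the flags, Meis1 had log2 signals of -0.52, 0.26 and 1.91 in 2T-WT and -1.18, -1.12 and 0.10 in 2T-p190-B-/-. The 2T-WT array with an unflagged spot, replicate 3, was the highest, and the groups overlapped. The difference was -1.28 (SE 0.86), with a limma adjusted p of 0.648 and an exact two-sided permutation p of 0.2.

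Hlf, on the same footing, had log2 signals of 1.34, 0.90 and 1.71 in 2T-WT and -0.63, 1.21 and 0.15 in 2T-p190-B-/-. Here, 2T-p190-B-/- replicate 2 lay within the 2T-WT range and the other 2T-p190-B-/- arrays lay below it. The means were 1.32 ± 0.40 and 0.25 ± 0.92 (SD, n = 3 each), a difference of -1.07 (SE 0.75), with a limma adjusted p of 0.656 and an exact two-sided permutation p of 0.2. The 2 unflagged Hlf spots were 2T-WT replicate 3 and 2T-p190-B-/- replicate 2. With Meis1 and Hlf added, the median difference over 6 genes was -0.34, against 0.10 over the 4 without them.

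Tal1, the founding member of the SCL complex, had 1 array far from the others. Its log2 signal was -1.25, -0.87 and 4.45 in 2T-WT, a mean of 0.78 ± 3.19 (SD, n = 3). The 2T-p190-B-/- arrays gave 0.68, 0.17 and -0.72, a mean of 0.05 ± 0.71 (SD, n = 3). All 3 lay above the other two 2T-WT arrays and below 2T-WT replicate 3. The difference was -0.74 (SE 1.47, 95% interval -4.11 to 2.64), with a limma adjusted p of 0.878. Without 2T-WT replicate 3 the sign turned and the difference was 1.101, with a limma adjusted p of 0.828. The same array had a summed signal of 715 over 8 B lymphocyte marker genes, against 4.47 to 6.92 on the other 5 arrays, which came largely from Cd79a, a part of the B cell receptor, at 9.47. There, 7 of the 8 genes were above background, against 4 to 7 on the other arrays. Their part in the Tal1 value was not tested.

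Lyl1, the close relative of Tal1, gave no direction. Its log2 signal was -1.60, -1.10 and 0.40 in 2T-WT and -2.01, 0.52 and -0.78 in 2T-p190-B-/-. Both groups spread over the same range, with means of -0.77 ± 1.04 and -0.75 ± 1.26 (SD, n = 3 each). The difference was 0.01 (SE 0.92, 95% interval -2.09 to 2.12), with a limma adjusted p of 0.998, and it turned negative under 7 of 18 alternatives. Among these, slide as a block and slide 2 alone are the same estimate by construction.

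Lmo2 and Gata2, the bridging and GATA members of the same complex, were too dim to test. Lmo2 was above background on 2T-p190-B-/- replicates 1 and 2, at -1.81 and -2.31, while the 2T-WT arrays read -4.72, -6.10 and -2.88 and 2T-p190-B-/- replicate 3 read -6.07, all at background. One 2T-p190-B-/- array thus lay with the 2T-WT arrays, and no fold is given because the bound is under 1. Gata2 was above background on 1 array of each genotype, 2T-WT replicate 2 at -3.76 and 2T-p190-B-/- replicate 3 at -3.20, and its groups overlapped. The other Gata2 values lay between -5.32 and -2.68.

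Runx1 was read near background by both probes. At A_55_P2183438 the log2 signal was -3.40, -3.22 and -3.05 in 2T-WT and -2.73, -3.21 and -3.21 in 2T-p190-B-/-, and it was above background on 2T-WT replicate 2 and 2T-p190-B-/- replicates 1 and 3. The groups overlapped, with a difference of 0.18 (SE 0.64, 95% interval -1.30 to 1.66) and a limma adjusted p of 0.940. With normexp background correction and an offset of 50 the value was -0.95. Which of these 2 changes turned the sign was not tested. The second Runx1 probe was above background on 2T-p190-B-/- replicate 1 alone, at -3.11, where the 2T-WT arrays read -4.67, -6.24 and -4.14 and the other 2T-p190-B-/- arrays -5.09 and -3.73.

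Fli1 and Erg, the ETS factors, were at background on every array. The log2 signal of Fli1 ran from -4.70 to -4.00 in 2T-WT and from -5.93 to -4.51 in 2T-p190-B-/-. The Erg probes, 143 bases apart, read -6.25 to -4.22 in 2T-WT and -7.09 to -5.02 in 2T-p190-B-/-. In these 3 probes the 2 groups overlapped and no difference was detectable.

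**Figure D2:**
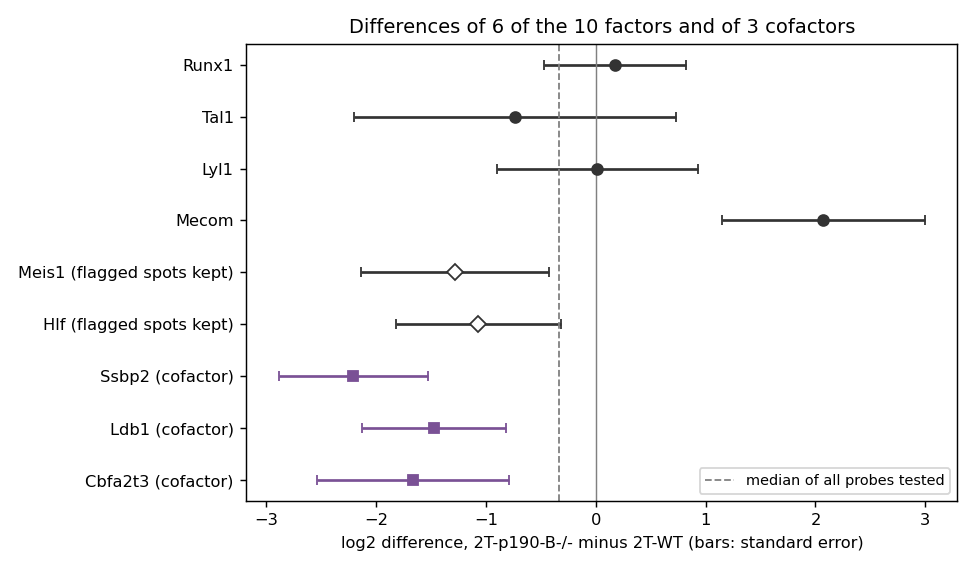
The log2 difference, 2T-p190-B-/- minus 2T-WT, with its standard error from limma for the 4 tested factors (circles), for Meis1 and Hlf with flagged spots kept (open diamonds), and for the 3 cofactors described in the text (squares). Mecom, at 2.07, is the point to the right of 1, while Ssbp2, Cbfa2t3 and Ldb1 lie between -2.21 and -1.48.

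Partners and cofactors of the 10 factors form the first of 4 lists, all chosen with earlier results of these data known. Of 15 such genes, all on the array, 10 were tested, of which 8 had a negative and 2 a positive difference, where 39.2% of all probes tested were positive, with a median of -1.09, against -0.33 over all probes tested, and 7 lay below that median. None had an adjusted p under 0.05 by limma, 1 had an unadjusted p under 0.05 (against 6.57%), and the groups of 3 did not overlap, all lower in 2T-p190-B-/-, against 11.6% of all probes tested. These 3 act with Tal1 and Lmo2, as bridge, stabiliser and corepressor. They were picked by their lack of overlap, so that this shared role is not a separate result. Ssbp3, a relative of Ssbp2 in the same list named after its values were seen, had overlapping groups. Its difference was 0.21 (SE 1.33; limma adjusted p = 0.968).

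Ssbp2, which shields Ldb1 from degradation, had log2 signals of 3.93, 4.69 and 4.29 in 2T-WT and 2.03, 1.63 and 2.62 in 2T-p190-B-/-. The difference was -2.21 (SE 0.68; limma adjusted p = 0.637), and the lowest 2T-WT array lay well above the highest 2T-p190-B-/- array. Of its 3 probes, a second gave -2.36 without overlap, and the other, above background on 1 2T-WT and 2 2T-p190-B-/- arrays, gave 1.51 with overlap. Ldb1, the dimerising bridge of the complex, read 1.09, 1.26 and 0.72 in 2T-WT and -0.07, -0.77 and -0.52 in 2T-p190-B-/-. Its difference was -1.48 (SE 0.66; limma adjusted p = 0.637). Cbfa2t3, a corepressor of the ETO family that joins Tal1 complexes, read -1.11, -1.39 and 1.30 against -1.85, -2.14 and -2.21. The 2T-WT spread was wide, since replicate 3 again stood apart, and the difference of -1.67 (SE 0.87; limma adjusted p = 0.637) became -0.82 without that array. Of its other probes, 1 gave -1.02 (SE 1.14) with overlapping groups and 1 was at background on every array, so that the lack of overlap rests on 1 of 3 probes. Zfpm1 (FOG1), a cofactor of GATA factors named after its values were seen, had the largest positive difference of the list, 2.46 (SE 1.12; limma adjusted p = 0.637), with overlapping groups. Tcf12, Cbfb, Pbx2, Pbx3 and Runx1t1 were too dim to test.

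Paralogs of the 10 factors gave 14 negative and 1 positive difference among 15 tested of 18 genes, where 39.2% of all probes tested were positive. Their median was -0.38, with 8 of 15 below the median of all probes. Of the 15, 0 had groups without overlap, against 16.1% of all probes tested, and 0 had an unadjusted p under 0.05 by limma, against 6.57%. Their median thus lay close to that of all probes tested. Gata1 and Gata3, relatives of Gata2 named after their values were seen, lay at the ends, at -2.59 (SE 1.25) and 2.51 (SE 1.49), each with overlapping groups and a limma adjusted p of 0.637.

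Other transcription factors of blood cells gave 9 negative and 5 positive differences among 14 tested of 20 genes, with a median of -0.23. Positive differences made up 39.2% of all probes tested. By limma, 0 had an adjusted p under 0.05 and 2 an unadjusted one, against 6.57% of all probes tested at that unadjusted p. The groups of 2 did not overlap, both lower in 2T-p190-B-/-, against 11.6% of all probes tested, so that 2 of 14 lay near that share. Gfi1b, a transcriptional repressor that acts in the erythroid and megakaryocytic lineages and restrains stem cell cycling, read 0.23, -0.05 and 1.67 in 2T-WT and -1.08, -1.88 and -0.92 in 2T-p190-B-/-. Its difference was -1.91 (SE 0.76; limma adjusted p = 0.637). Egr1, an immediate early factor that restrains HSC proliferation, was above background on 2 arrays of each group. It read -3.04, -1.99 and -2.01 in 2T-WT and -4.71, -4.59 and -3.08 in 2T-p190-B-/-. Its difference was -1.78 (SE 0.77; limma adjusted p = 0.637). The values of 2T-WT replicate 1 and 2T-p190-B-/- replicate 2 lay below the lowest signal called above background there, -2.69 and -2.86. The difference thus rests in part on upper limits.

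Known targets of the 10 factors gave 5 positive and 3 negative differences among 8 tested of 11 genes, where 39.2% of all probes tested were positive. Their median was 0.14, and 0 had an adjusted p under 0.05 by limma. The groups of 1 of the 8 did not overlap, against 16.1% of all probes tested, and that share is near the one for all probes. Csf1r, the receptor for M-CSF, which Runx1 regulates, read 6.08, 5.77 and 7.24 in 2T-WT and 5.25, 5.45 and 4.85 in 2T-p190-B-/-. Its difference was -1.18 (SE 0.71; limma adjusted p = 0.637), a second probe gave -1.37 without overlap and the last -0.22 with overlap. With quantile normalization the first value was 0.02, so that its sign depended on the scaling.

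**Figure D3:**
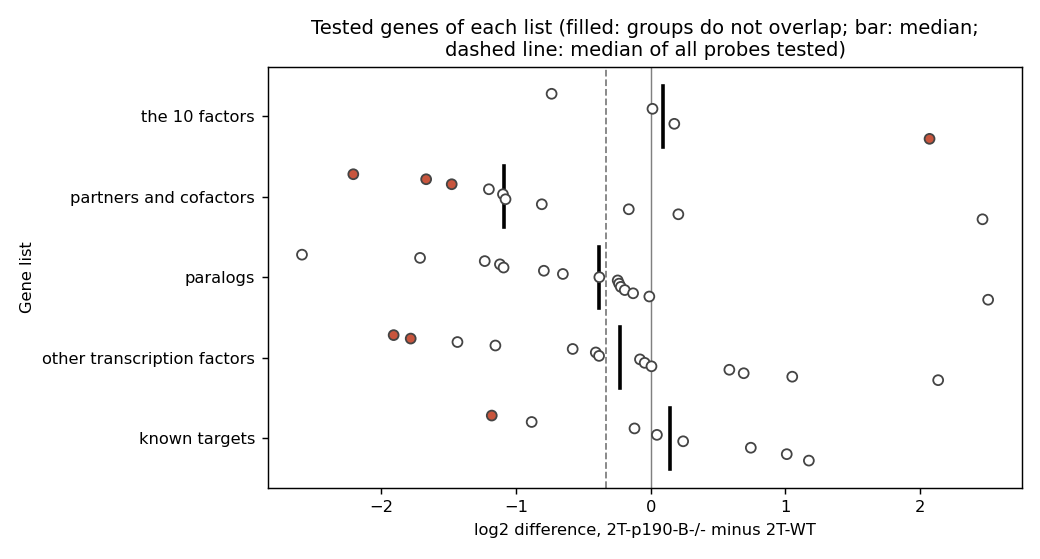
The log2 difference, 2T-p190-B-/- minus 2T-WT, of every tested gene of the 10 factors and of the 4 lists, 1 point per gene by its brightest tested probe. Black bars are list medians, the dashed line is the median of all probes tested (-0.33), and filled points are genes whose groups did not overlap. The partners and cofactors have the lowest median, -1.09.

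The labels could be checked only in part. The probe of Arhgap5 exceeded background in 0 samples of 2T-WT and in 1 of 2T-p190-B-/- (replicate 2), so it gave no check of genotype. Among 7 markers of HSC, Ly6a (Sca-1) and Fgd5 were above background on all 6 arrays and Kit on 5, while Ctnnal1 was on 1. Slamf1 (CD150), used in the sort, and Procr were above background on no array. Cd48, by which cells were gated out, and Flt3 were above background on all 6. The defining CD150 transcript was therefore not seen, and the identity of the sorted cells rests on the labels. Markers of other cell types were also read, each gene by its best probe. Above background on all 6 arrays were 4 of 6 T lymphocyte, 4 of 8 B lymphocyte and 3 of 6 endothelial genes. So were 3 of 7 megakaryocyte, 2 of 9 neutrophil and 2 of 6 red cell genes. Over all single probes the share was 35.5%, with flagged spots counted. The source of these signals was not tested. The 75th percentile of signal ran from 53.9 to 227 in 2T-WT and from 252 to 385 in 2T-p190-B-/- before scaling, and no spot was saturated.

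The differences of the 4 tested factors were then recomputed under every alternative processing. Mecom stayed positive, between 0.86 and 2.75. Since its groups did not overlap, leaving out arrays or blocking by slide could not turn its sign. Alternatives that changed only the test or the filter left its difference as it was. Its constant sign is therefore in large part fixed by the lack of overlap. Tal1 ranged from -1.75 to 1.101, Lyl1 from -0.62 to 0.64 and Runx1 from -0.95 to 0.35, and each of these crossed 0.

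**Figure D4:**
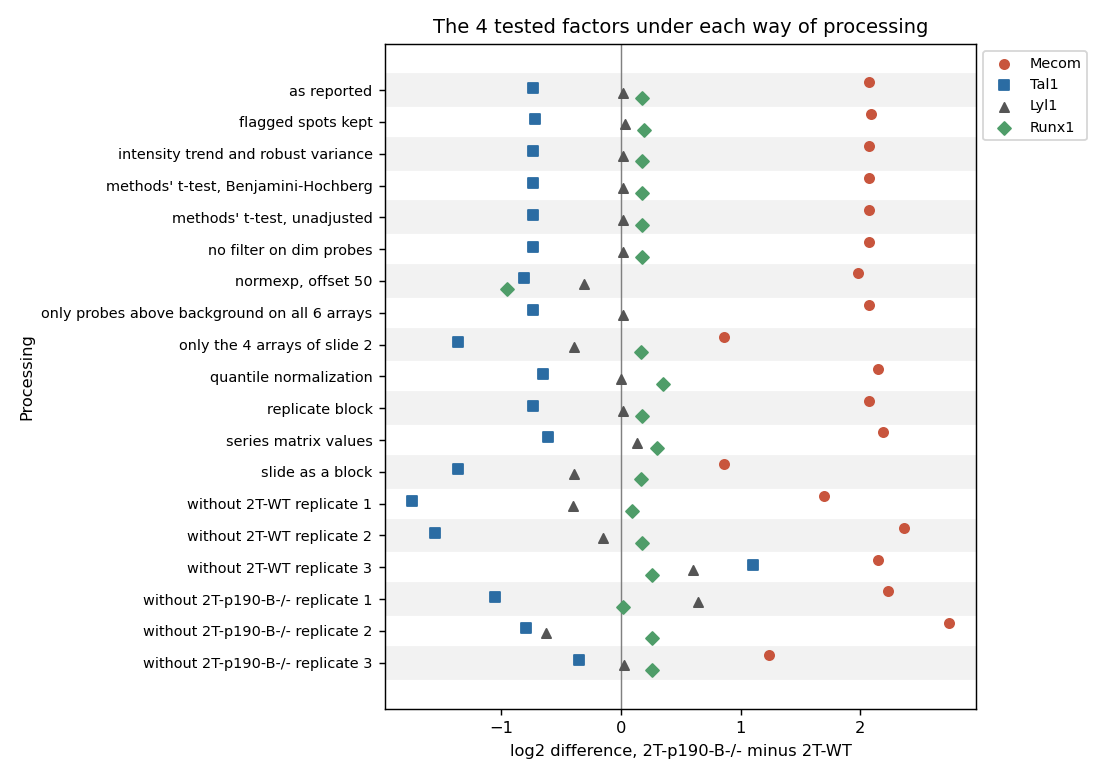
The log2 difference, 2T-p190-B-/- minus 2T-WT, of the 4 tested factors (symbols) as reported and under each alternative processing (rows). The Mecom points all lie to the right of 0, from 0.86 to 2.75, which leaving out arrays could not change because its groups did not overlap. The 2 nearest to 0 are slide 2 alone and slide as a block, which are the same estimate by construction. A gene without a symbol in a row had no value there.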

How the data were processed

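The authors deposited the scanner output of 6 Agilent arrays, made with Feature Extraction 10.5.1.1 per the file headers, in which the processed signal is an intensity on a linear scale with background removed and no scaling between arrays. They also deposited a signal per spot that equals it divided by 1 number per array. Amplification and Cy3 labelling were done before hybridisation. Here, control spots and spots flagged as outliers (296 to 509 per array) were left out, each processed signal was divided by its array's 75th percentile, log2 values were averaged per probe, and probes that passed background on 3 or more arrays were tested with limma 3.58.1 (lmFit and eBayes, R 4.3.3), without covariates, with Benjamini-Hochberg adjustment. Gene names of other genes were updated through the RefSeq table (GRCm38.p6), 26412 probes by accession and 3854 by name, and 9163 kept the file's name. In lists, the brightest tested probe stands for a gene. Of each list, at most 4 genes with groups that did not overlap and a difference of at least 2-fold are named, by the smallest p. The members, lists and tests were chosen with earlier results of these data known. Of 3 slides, the first had 2T-WT replicate 1 alone, the last 2T-p190-B-/- replicate 3 alone, and slide 2 the other 4 arrays. The alternatives were 18 that had been planned and 1 added later. The fit was tested on data simulated with the spread of these arrays. At a true log2 change of 2, 0 of 67 changed probes had a limma adjusted p under 0.05. At 4 it was 5 of 67, and at 6 it was 24 of 66. A lack of probes under that threshold therefore does not show a lack of change. The number of arrays limits the precision. The values of 2 marker genes are not reported here.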

Additional observations from a re-analysis of the deposited data

How the results depend on the processing

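No processing that was run with adjustment gave any of the 13 probes an adjusted p under 0.05 by limma. Over all probes, the methods' t-test without adjustment took 1783 at p of 0.05 or less (0 after adjustment), and 4 list genes. The median difference of the tested factors, 0.10, ranged from -0.56 with normexp to 0.85 without 2T-WT replicate 3, and was -0.33 over 8 genes without a filter on dim probes. The factors without overlap numbered 2 of 4 with the authors' processed values (15.7% of all probes) and 1 to 3 when 1 array was left out (23.2% to 32.6% of all probes; 3 without 2T-WT replicate 3, where it was 24.3%). Partners and cofactors without overlap numbered 5 on slide 2 alone, where 33.3% of all probes were lower without overlap, and 3 to 5 when 1 array was left out (5 without 2T-p190-B-/- replicate 1), where 15.4% to 25% were. Their median ranged from -1.42 to -0.52. The sign of Lyl1 turned with normexp (-0.31), slide as a block (-0.39), slide 2 alone (-0.39), quantile normalization (-0.0025), and without 2T-WT replicate 1 (-0.40), 2T-WT replicate 2 (-0.15) or 2T-p190-B-/- replicate 2 (-0.62). Runx1 turned with normexp (-0.95), Tal1 without 2T-WT replicate 3 (1.101) and Csf1r with quantile normalization (0.022). When 1 array was left out, Lyl1 ranged from -0.62 to 0.64 and Tal1 from -1.75 to 1.101. The cause was not tested.

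Same-numbered arrays of the groups did not deviate together (correlations of 0.01, 0.02 and 0.09 across probes), so the replicate numbers were not taken as pairs. With the replicate number as a block, 0 probes passed, and Mecom had a limma adjusted p of 0.567. Its difference, 2.07, cannot change under this block, since each number has 1 array of each group.

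Spots near background limit Gata2, Lmo2, Runx1, Fli1 and Erg, for which differences were not detectable at this signal.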
